A study of Macaca mulatta with 24 samples.

Results

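Interleukins are secreted proteins through which immune, epithelial and stromal cells signal to one another, and each acts through a receptor of 1 or more chains on the responding cell. In the small intestine, IL18 and IL34 come in part from epithelial and stromal cells and IL7 and IL15 sustain lymphocytes in the epithelium and the lamina propria, while cytokines such as IL5, IL17A and IL22 are made mainly by lymphocytes. Some family members hold signalling in check, either as decoys that bind the ligand (IL18BP, IL1R2) or as ligands that occupy a receptor without activating it (IL1RN).

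All probes of a rhesus macaque array whose gene symbol is IL followed by a digit were taken, apart from the 4 probes of 2 symbols that are not described here. This gave 116 of 43603 probes, for 71 gene symbols: 44 probes of 33 ligands, 4 probes of 3 antagonists or binding proteins and 68 probes of 35 receptor chains. The symbols are those of the array's annotation and some are old: IL1F5, IL1F6, IL1F8 and IL1F9 are now written IL36RN, IL36A, IL36B and IL36G, IL28A and IL28B are lambda interferons, and IL8RB is the chemokine receptor CXCR2, which the symbol alone brought in. The annotation of 1 of the IL13RA2 probes (A_01_P008806) describes a different receptor chain, so its gene is uncertain.

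RNA came from jejunum tissue of young adult male rhesus macaques, each animal on its own array. The 4 control animals were sham-irradiated, and the labels give them day 4. The irradiated animals were exposed once, over the whole body (TBI), to a dose of 6.7 or 7.4 Gy from a cobalt-60 source, and at each dose 4 animals were sampled on day 4, another 4 on day 7 and 2 on day 12. The sample titles give day 12, while the treatment protocol in the labels gives day 21 in its place; day 12 is used here. Later days therefore had no control of their own day, and the same controls served both doses. In RNA from a tissue, fewer cells of a type and less RNA per cell cannot be told apart.

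The level of a probe is log2 of its background-corrected signal minus the 75th percentile of the array, so a level of 0 is as bright as that percentile. Testing was limited to probes that the scanner software placed well above background on every array of 1 group or more. A change was called at a limma adjusted p under 0.05 and 2-fold or more. P-values were adjusted over all 28171 probes tested.

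The arrays differed in what they could detect. Slides 4 and 5 showed 23 to 45 of the 116 interleukin probes well above background, against 46 to 92 on the other slides. Over all probes the same shares were 39.4% to 62.6% and 63.9% to 87.7%. Slide 4 held control replicate 4, and slides 5 and 6, scanned on the second day, held no control. Both 7.4-Gy day 12 arrays lay on slides 5 and 6 and both 6.7-Gy day 12 arrays on slides 3 and 4, so that on day 12 dose, slide and scan day cannot be told apart, and the 7.4-Gy day 12 group shared no slide or scan day with a control. All controls lay at position 1 of their slides. Markers of the tissue were in place: all 5 enterocyte markers on the array were well above background on every control array, as were both smooth muscle markers.

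Fewer interleukin probes than other probes gave a signal, and the ligands gave least. Of the 116 probes, 48 (41.4%) were tested, against 64.6% of all probes. These were 14 of 44 ligand probes (31.8%), 2 of 4 antagonist or binding protein probes and 32 of 68 receptor probes (47.1%). Well above background on all 24 arrays were 20 interleukin probes (17.2%, against 36.1% of all probes), and 14 were so on no array (12.1%, against 6.28%). By gene, 33 of 71 symbols had a tested probe: 11 of 33 ligands, 1 of 3 antagonists or binding proteins and 21 of 35 receptor chains.

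**Figure D1:**
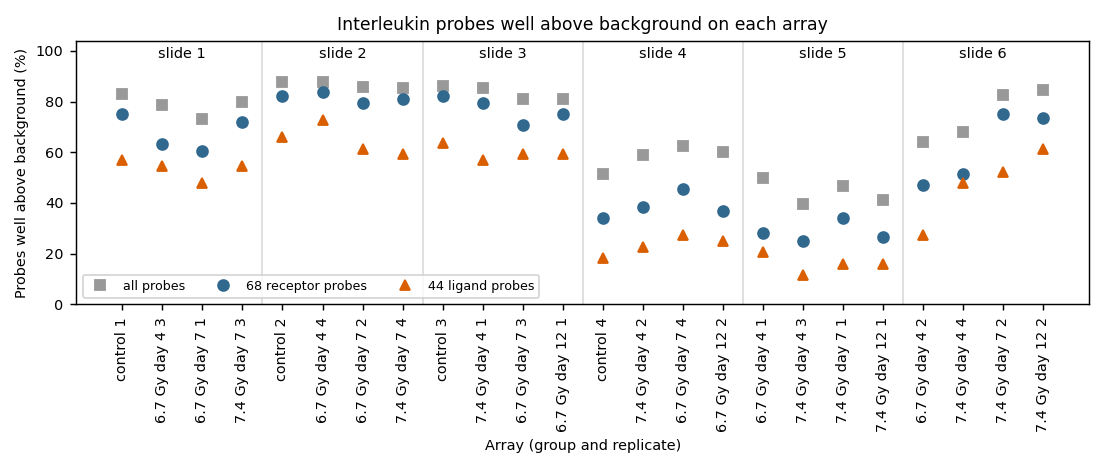
Percent of probes well above background on each of the 24 arrays, ordered by slide, for all probes (squares), receptor probes (circles) and ligand probes (triangles). Ligand probes lay below receptor probes on every array, and the arrays of slides 4 and 5 lay lowest for all probes and for receptor probes. They had 5 to 12 of 44 ligand probes, against 12 to 32 on the other slides.

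The ligands without a tested probe numbered 22, and 11 of them were detected on 3 arrays at most. IL17A, IL21 and IL3 were well above background on 0 of 24 arrays. IL22, IL26, IL9, IL12A, IL1F6, IL1F8 and IL28A were so on 1 array each, and IL24 on 3. IL13 reached 10 arrays, IL17F and IL2 13 each, IL20 11, IL1F9 and IL28B 14 each, and IL25 and IL31 15 each.

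The 2 founding members of the family, IL1A and IL1B, which drive fever and local inflammation, were not tested either. IL1B was well above background on 12 of 24 arrays, 3 of the 4 controls among them and 2 of 4 arrays of each day 4 group. The better of the 2 probes of IL1A reached 9 arrays. IL1RN, the receptor antagonist, reached 8, and IL1F5, an antagonist of the related IL36 receptor, none. None of these had a group in which every array measured it, so no change is given for them.

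IL12B, a subunit of both IL12 and IL23, was untested as well, and its 2 probes disagreed. Probe A_01_P1672181 was detected in 0 of 4 controls but in 3 of 4 animals of the 6.7-Gy day 4 group. Probe A_01_P1696451 was detected in 3 of 4 controls and in 1 of 4 animals of that group.

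The receptor chains without a tested probe were IL1RL2 and IL1RAPL2 (0 arrays), IL1RAPL1 (3), IL8RB (6), IL18R1 (7), IL21R (10), IL12RB2 (11), IL5RA (12), IL2RA (13), IL10RA, IL17RB and IL2RB (14 each), IL18RAP (15) and IL23R (16). For example, ligand and receptor chain were both without a test for IL21 and IL21R, and for IL2 and its chains IL2RA and IL2RB. IL2RG, the common gamma chain, was tested.

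In the reference assembly T2T-MMU8v2.0, several members lie next to each other with no other protein-coding gene between them. The longest such run holds 6 receptor genes on chromosome 13, in the order IL1R2, IL1R1, IL1RL2, IL1RL1, IL18R1 and IL18RAP. Of these, 3 had a tested probe (IL1R2, IL1R1 and IL1RL1). No coordinates are given, because the array's annotation uses another build.

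The first question was which interleukins and receptors departed from the sham animals. In the 6 comparisons with control, limma called 3 changes in all. After 6.7-Gy TBI on day 4, IL9R was down-regulated. After 7.4-Gy TBI on day 4, IL1R1 was up-regulated. After 7.4-Gy TBI on day 7, 1 of 2 tested probes of IL17RE was down-regulated. Each of these was 1 of 48 interleukin probes (2.08%), against 1.98%, 2.6% and 0.288% of all probes tested in the same comparisons. No tested ligand was called against control in any of the 6 comparisons.

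**Figure D2:**
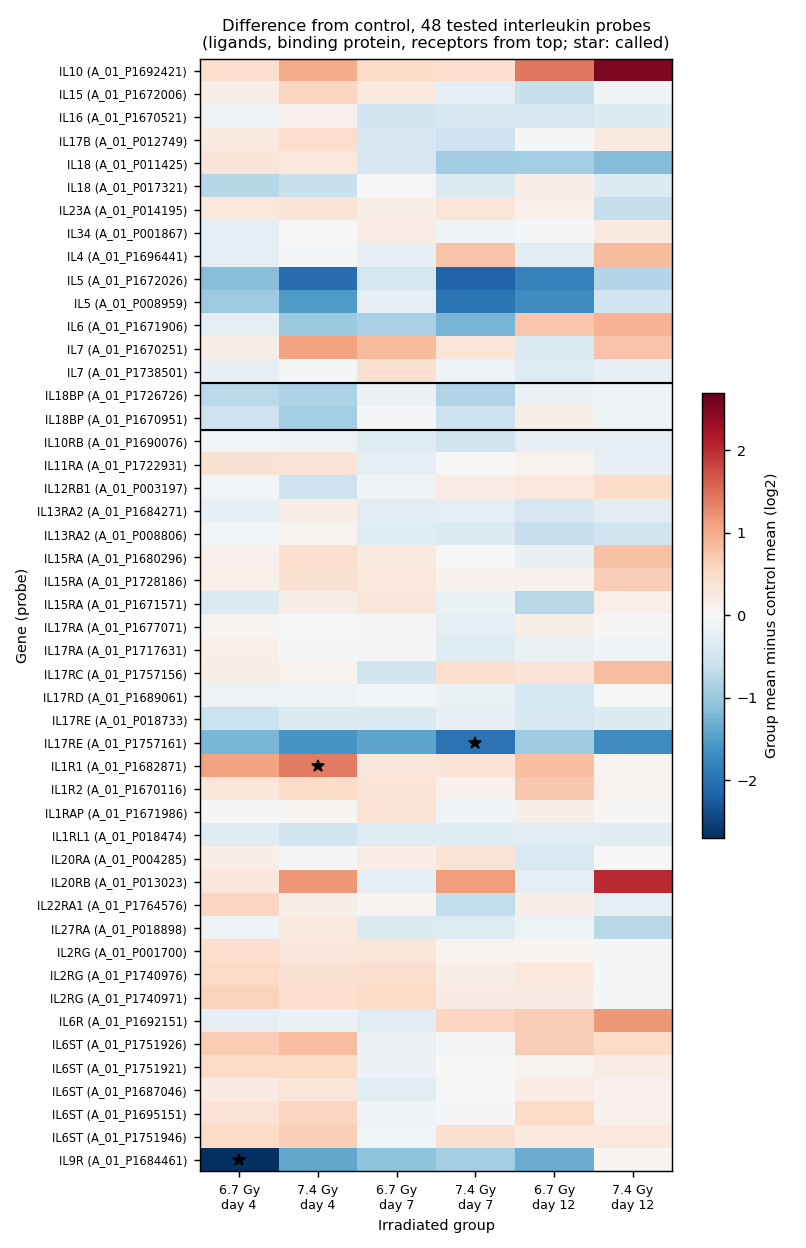
Group mean minus control mean (log2) of the 48 tested interleukin probes in the 6 irradiated groups, with 14 ligand probes at the top, 2 IL18BP probes and 32 receptor probes. Stars mark the 3 called changes, of IL9R (-2.69), IL1R1 (1.38) and IL17RE (-1.98).

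IL1R1 encodes the signalling receptor for IL1A and IL1B. The control levels of its brighter probe (A_01_P1682871) were -2.22, -2.51, -1.53 and -2.02. The 7.4-Gy day 4 arrays read -0.55, -0.92, -0.45 and -0.85. All 4 lay above every control, with a rise of 1.38 log2 (2.60-fold, SE 0.22, limma adjusted p = 0.0164).

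In the 6.7-Gy day 4 group IL1R1 read -2.14, -0.51, -0.57 and -0.69. Replicates 2 to 4 lay with the 7.4-Gy arrays and replicate 1 within the control range, so that the groups overlapped. The mean difference was 1.1 log2 (SE 0.38, limma adjusted p = 0.142) and was not called; without replicate 1 it was 1.48 and was called (adjusted p = 0.0220). It was also called with slide as a fixed or random block (1.31 and 1.15, adjusted p = 0.0370 and 0.0258), with scan day as a block (1.26, adjusted p = 0.0384) and with all arrays in the fit (adjusted p = 0.0457). Replicate 1 lay on slide 5.

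On day 7 IL1R1 ran from -1.97 to -1.47 after 6.7 Gy and from -2.09 to -1.01 after 7.4 Gy, both overlapping control. On day 12 it read -1.09 and -1.41 after 6.7 Gy and -1.75 and -2.25 after 7.4 Gy. Over the 7 groups it passed the F test (adjusted p = 0.0283), and this was lost without control replicate 2 (adjusted p = 0.0526) and without replicate 1 or 3 of the 7.4-Gy day 4 group (adjusted p = 0.0645 and 0.0643). Within slides 3 and 4, which each held a control and a 7.4-Gy day 4 array, the differences were 0.98 and 1.11.

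With position on the slide as a block, the day 4 difference of IL1R1 after 7.4 Gy was 0.68 (adjusted p = 0.690), and the call was lost. No 7.4-Gy day 4 array shared the controls' position, and only the 6.7-Gy day 4 group, with 2 arrays at each of the 2 positions, links them. Without the 8 arrays of slides 4 and 5 the difference was 1.39 (adjusted p = 0.122).

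The other probe of IL1R1 (A_01_P1736616) was too dim to be tested, with 3 of 4 controls well above background. It averaged -4.84 ± 0.74 (SD, n = 4) in control, -3.42 ± 0.89 (n = 4) in the 6.7-Gy day 4 group and -3.49 ± 0.62 (n = 4) in the 7.4-Gy day 4 group.

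The summed level of fibroblast markers lay above every control in both day 4 groups, while IL1R1 was called in 1 of them. Of 4 tested fibroblast markers, 3 were called up in the 7.4-Gy day 4 group (DCN by 1.25, COL3A1 by 1.29 and LUM by 1.12 log2; 2.6% of all probes were called), and the summed level of the 5 on the array ran from 4.91 to 6.00 in control and from 6.49 to 7.32 in that group. On day 4 after 6.7 Gy the fibroblast sum ran from 6.21 to 6.39, with 0 of 4 called (DCN 0.90, limma adjusted p = 0.0441, under 2-fold). On day 4 after 7.4 Gy, 1 of 4 tested macrophage and monocyte markers, CD14, was called up (1.25 log2). In that group 1 of 4 tested plasma cell markers, MZB1, was called down (-1.84), and 0 of 2 smooth muscle and 0 of 5 endothelial markers were called. Their part in the rise of IL1R1 was not tested.

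The other tested receptor chains of the IL1 family showed no call. IL1R2, a decoy receptor that binds IL1 without signalling, differed by 0.33 and 0.50 on day 4 after 6.7 and 7.4 Gy (limma adjusted p = 0.712 and 0.540). IL1RL1, the receptor for IL33, differed by -0.35 and -0.52, the latter without overlap (adjusted p = 0.263 and 0.0970). IL1RAP, the shared second chain, differed by -0.02 and 0.06.

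IL9R encodes the ligand-binding chain of the receptor for IL9, a growth factor of mast cells and T cells. Its brighter probe (A_01_P1684461) read -0.84, -2.24, -2.15 and -0.95 in control and -5.18, -4.00, -3.94 and -3.81 in the 6.7-Gy day 4 group. The groups did not overlap, and IL9R fell by 2.69 log2 (6.45-fold, SE 0.42, limma adjusted p = 0.0165). Replicate 1 of the irradiated group, on slide 5, was not well above background.

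In the 7.4-Gy day 4 group IL9R read -2.55, -1.17, -4.10 and -3.90, which spanned both, and its difference from control was -1.39 (adjusted p = 0.225). On day 7 it ran from -3.73 to -1.38 after 6.7 Gy and from -3.26 to -1.78 after 7.4 Gy. On day 12 it read -2.92 and -2.84 after 6.7 Gy and -0.93 and -2.04 after 7.4 Gy. Over the 7 groups it did not pass the F test (adjusted p = 0.0513).

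The call for IL9R was kept in 18 of 24 alternatives. It was lost with quantile normalization (adjusted p = 0.0549), no filter (0.0653), the methods' t-test (0.0636), position as a block (-3.05, adjusted p = 0.0915), the replicate block (0.0805) and a common floor. When every value was raised to the highest detection limit of any array (a level of -1.85, that of 7.4-Gy day 4 replicate 3 on slide 5), the difference was -0.48 (adjusted p = 0.470), because most of its values lie below that limit. Within slides 1 and 2 the differences were -3.10 and -1.57.

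The other probe of IL9R (A_01_P1742716), not tested, averaged -4.97 ± 0.26 (SD, n = 4) in control and -5.81 ± 0.66 (n = 4) in the 6.7-Gy day 4 group, and only 1 of 4 arrays of that group was well above background. Mast cell markers overlapped between these groups, with a summed level of 0.70 to 1.60 in control and of 1.07 to 1.28 after 6.7 Gy on day 4, as did T cell markers (2.39 to 2.90 and 2.73 to 3.15). In the same comparison 1 of 4 plasma cell markers (MZB1, -1.71) and 1 of 5 enterocyte markers (VIL1, -1.58) were called down, and the summed plasma cell level ran from 3.37 to 5.14 in control and from 3.40 to 3.65 in the irradiated group. Their part in the fall of IL9R was not tested. IL2RG, the chain that IL9R pairs with, had differences of 0.45 to 0.61 in that group over its 3 probes, none called.

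**Figure D3:**
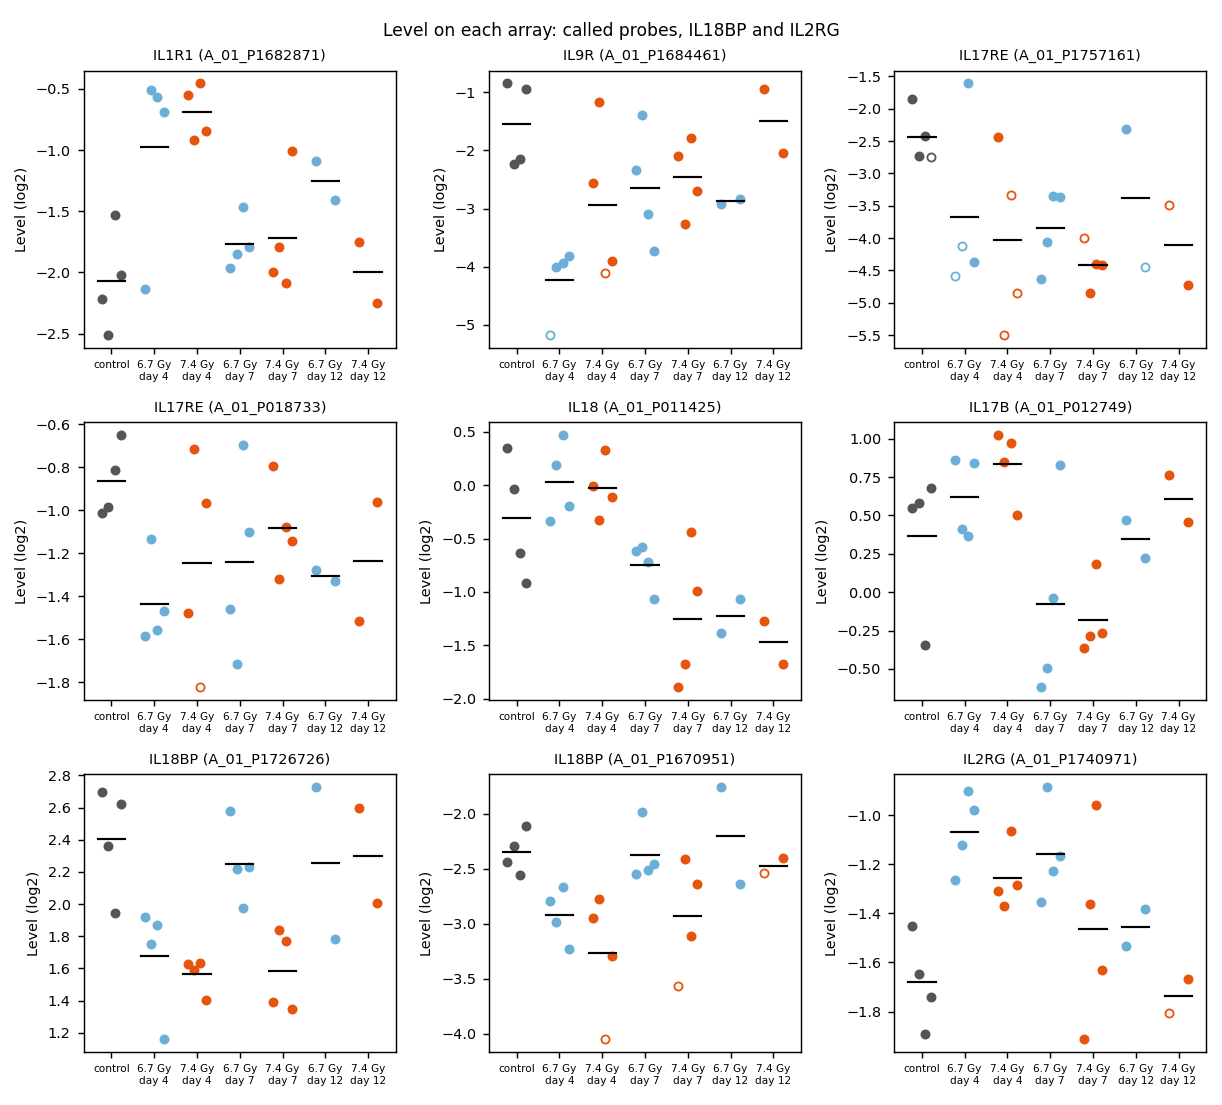
Level (log2) on each array of the called probes, the brighter IL17RE probe, both IL18BP probes and the IL2RG probe with the smallest F-test p, by group. Filled points are well above background, open points are not, and lines are group means; the 4 arrays of IL9R after 6.7 Gy on day 4 lie between -5.18 and -3.81, below every control.

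IL17RE encodes the receptor chain for IL17C, a cytokine that epithelial cells both make and respond to. Probe A_01_P1757161 read -1.85, -2.73, -2.42 and -2.75 in control, the last not well above background. In the 7.4-Gy day 7 group it read -4.00, -4.85, -4.41 and -4.41, all below every control, a fall of 1.98 log2 (3.95-fold, SE 0.25, limma adjusted p = 0.0241). Of these 4 arrays, 3 were well above background. With every value raised to the detection limit used for IL9R, a level of -1.85, the difference was -0.000281 (adjusted p = 1), because both groups lie at or below that limit, though the limits of their own 8 arrays were lower. The mean of each of the other irradiated groups was below control as well, by -0.95 to -1.67, with no call.

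The brighter IL17RE probe (A_01_P018733) differed less. It read -1.01, -0.98, -0.81 and -0.65 in control and -0.79, -1.32, -1.08 and -1.14 in the 7.4-Gy day 7 group, and the groups overlapped (difference -0.22). Its largest difference was on day 4 after 6.7 Gy, where it read -1.59, -1.13, -1.56 and -1.47, all below control (-0.57, adjusted p = 0.0814). The call for the dimmer probe was lost without any 1 of the 4 control arrays, where the difference ran from -2.09 to -1.79. It was lost without replicate 2 of the irradiated group (-1.84, adjusted p = 0.0768) and without replicate 4 (-1.98, adjusted p = 0.0800). It was also lost with other arrays in the fit (adjusted p = 0.0964) and with slide as a fixed or random block (adjusted p = 0.156 and 0.0748), and it was kept in 8 of 23 alternatives. The enterocyte markers had a summed level of 6.83 to 7.60 in control and of 6.01 to 6.88 in the 7.4-Gy day 7 group, and their part in the difference was not tested.

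The other chains of this receptor family showed no call. IL17RA, the shared chain, differed from control by -0.33 to 0.15 over both probes and all groups, and IL17RC, the neighbour of IL17RE on the chromosome, by -0.49 to 0.83. IL17RD differed by -0.48 to -0.01.

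The remaining comparisons with control held no call. After 6.7-Gy TBI on day 7, limma called 0 of 48 (0.0639% of all probes). At an unadjusted p under 0.05 there were 4 (8.33%, against 10.5% of all probes), and the methods' t-test called 0. On day 12, limma called 0 of 48 in both groups (0.0071% and 0.00355% of all probes). At an unadjusted p under 0.05 there were 8 after 6.7 Gy (16.7%, against 7.0% of all probes) and 6 after 7.4 Gy (12.5%, against 8.42%), and the methods' t-test called 0 in both. Day 12 rests on 2 arrays per dose.

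The receptor probes had a median above that of all probes on day 4, with 19 and 22 of 32 above 0; probes of the same gene, such as those of IL6ST and IL2RG, are counted separately, and no test was made of the group. Their median difference was 0.13 log2 after 6.7 Gy and 0.18 after 7.4 Gy on day 4, against -0.06 and -0.08 over all probes. On day 7 it was -0.09 and -0.03, against 0.00 and -0.03. The ligand probes had medians of -0.16 and 0.07 on day 4 and of -0.11 and -0.32 on day 7.

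The second question was how expression moved between days at a given dose. After 7.4-Gy TBI, IL18 and IL17B were lower on day 7 than on day 4, which made 2 of 48 interleukin probes (4.17%, against 1.64% of all probes). IL18 was also lower on day 12 than on day 4, 1 of 48 (2.08%, against 2.42%). After 6.7-Gy TBI limma called 0 of 48 between day 7 and day 4 and 0 between day 12 and day 4 (1.55% and 0.951% of all probes). At an unadjusted p under 0.05 there were 10 (20.8%, against 21.1% of all probes) and 5 (10.4%, against 17.7%), and the methods' t-test called 0 and 0.

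IL18 is a cytokine of the IL1 family that epithelial cells and macrophages hold as an inactive precursor and that caspase-1 cleaves. Its brighter probe (A_01_P011425) was well above background on all 24 arrays. It read 0.34, -0.04, -0.63 and -0.92 in control, -0.34, 0.19, 0.47 and -0.19 on day 4 after 6.7 Gy, and -0.01, -0.33, 0.32 and -0.11 on day 4 after 7.4 Gy. The controls spread wider than the day 4 groups (SD 0.57, against 0.37 and 0.27, n = 4 each) and overlapped both.

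On day 7 IL18 read -0.62, -0.58, -0.72 and -1.06 after 6.7 Gy and -1.89, -1.68, -0.44 and -0.99 after 7.4 Gy. On day 12 it read -1.39 and -1.07 after 6.7 Gy and -1.27 and -1.68 after 7.4 Gy. Every array of days 7 and 12 lay below every array of day 4 at the same dose, and both day 12 groups lay below every control.

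At 7.4 Gy IL18 fell by 1.22 log2 from day 4 to day 7 (2.33-fold, SE 0.29, limma adjusted p = 0.0223) and by 1.44 from day 4 to day 12 (2.72-fold, SE 0.36, adjusted p = 0.0324). At 6.7 Gy the same differences were -0.78 and -1.26 (adjusted p = 0.131 and 0.0811) and were not called. Against control, day 12 differed by -0.92 after 6.7 Gy and by -1.16 after 7.4 Gy (adjusted p = 0.690 and 0.530). IL18 had the smallest F-test p of the 48 probes (adjusted p = 0.0117), and this call was kept in 37 of 38 alternatives.

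The day 7 difference of IL18 after 7.4 Gy was -2.22 within slide 5 and -1.57 within slide 6. Over the arrays scanned on the first day it was -0.55, and over those of the second day -1.89, with 2 arrays per group in each. Without the arrays of slide 5 it was -0.89 (adjusted p = 0.185). The call was also lost without day 4 replicate 1 (-1.21, adjusted p = 0.0670) or 3 (-1.10, adjusted p = 0.0733) and without day 7 replicate 1 (-1.01, adjusted p = 0.0780) or 2 (-1.08, adjusted p = 0.0701).

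For the day 12 difference of IL18 after 7.4 Gy, the values within slides 5 and 6 were -1.59 and -1.57. The call was lost without day 4 replicate 1 or 3 (-1.44 and -1.33). With scan day as a block it was lost too (-1.28, limma adjusted p = 0.0874), as with the replicate block (-1.31, adjusted p = 0.271) and other arrays in the fit (adjusted p = 0.119). It was also lost without either day 12 array (-1.65 and -1.24) and without slide 5 (-1.53), which each leave 1 day 12 array. The call was kept in 11 of 22 alternatives.

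The summed level of the macrophage and monocyte markers was also lower on both later days than on day 4 after 7.4 Gy. It was 2.67 to 3.05 on day 4, 1.66 to 2.56 on day 7 and 2.04 to 2.24 on day 12, for the 4 genes on the array. CSF1R was called down from day 4 on both later days (by -1.01 and -1.14 log2) and CD14 on day 12 (by -1.47). Markers of other cells were called down too: APOB of enterocytes on day 7 (-1.25), KDR of endothelium on both days (-1.03 and -1.95), and VWF of endothelium (-1.40) and HDC and CPA3 of mast cells (-1.50 and -2.04) on day 12. The enterocyte sum was 6.66 to 7.64, 6.01 to 6.88 and 7.36 to 7.38. The T cell sum was 2.58 to 3.38, 2.25 to 2.51 and 2.41 to 2.86. Of 4 tested T cell markers, 0 were called on day 7. CD3E (-0.89), CD3G (-0.85) and CD2 (-0.61) had a limma adjusted p under 0.05 there but were under 2-fold. The part of these cells in the fall of IL18 was not tested.

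The dim probe of IL18 (A_01_P017321) was well above background on 18 arrays. On day 7 it was 0.76 and 0.20 above day 4 after 6.7 and 7.4 Gy, where the bright probe was below. On day 4 after 6.7 Gy, 2 of 4 arrays were well above background. Every array was so only in the 6.7-Gy day 7 and day 12 groups, where its mean is highest. The dim probe entered the test through those groups, so its differences are a description.

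IL18BP, which binds IL18 and blocks it, had a bright probe (A_01_P1726726) on all 24 arrays. It read 2.7, 2.36, 1.94 and 2.62 in control. After 6.7 Gy on day 4 it read 1.92, 1.75, 1.87 and 1.16, and after 7.4 Gy 1.63, 1.59, 1.63 and 1.41. All 8 irradiated arrays of day 4 lay below every control.

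On day 7 the bright IL18BP probe read 2.58, 2.22, 1.98 and 2.23 after 6.7 Gy, within the control range, and 1.39, 1.84, 1.77 and 1.35 after 7.4 Gy, below it. On day 12 it read 2.73 and 1.78 after 6.7 Gy and 2.59 and 2.00 after 7.4 Gy.

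The differences of the bright IL18BP probe were under 2-fold and so were not called. The largest against control was -0.84 log2 (1.79-fold, SE 0.18, limma adjusted p = 0.0382) on day 4 after 7.4 Gy, and with position as a block it was -0.52 (adjusted p = 0.619). The day 4 difference after 6.7 Gy was -0.73 (adjusted p = 0.114), and on day 7 after 7.4 Gy it was -0.82 (adjusted p = 0.121). Over the 7 groups IL18BP passed the F test (adjusted p = 0.0347). That call was lost in 16 of 38 alternatives, 11 of which left out a single array, with an adjusted p of at most 0.0634 in those 11.

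The second IL18BP probe (A_01_P1670951) had the same direction on day 4. It read -2.44, -2.29, -2.56 and -2.11 in control. After 6.7 Gy it read -2.79, -2.98, -2.67 and -3.23, and after 7.4 Gy -2.95, -2.78, -4.05 and -3.29. None of these overlapped control (differences -0.57 and -0.92, adjusted p = 0.101 and 0.0830).

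IL17B, a ligand of the IL17 family, was bright on all 24 arrays (A_01_P012749). After 7.4 Gy it read 1.02, 0.85, 0.97 and 0.50 on day 4 and -0.36, -0.29, 0.19 and -0.27 on day 7, without overlap, a fall of 1.02 log2 (2.03-fold, SE 0.27, limma adjusted p = 0.0332). On day 12 it was back at 0.76 and 0.46. After 6.7 Gy it read 0.86, 0.41, 0.37 and 0.84 on day 4 and -0.62, -0.49, -0.04 and 0.83 on day 7 (-0.70, adjusted p = 0.135).

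Control values of IL17B were 0.55, 0.58, -0.34 and 0.68, and they overlapped all 6 irradiated groups. The fall of IL17B was close to the 2-fold limit. Without single arrays it ran from -1.14 to -0.96, and the call was kept without day 4 replicate 4 and without day 7 replicate 3 and was lost without each of the other 6. The 2 scan days gave -0.98 and -1.06. The call was kept in 9 of 24 alternatives. Blocking lost it, with slide as a fixed block (-0.91, limma adjusted p = 0.0979), slide as a random block (-0.99) or the replicate block (adjusted p = 0.244). So did normexp background correction (-0.75, adjusted p = 0.0745), other arrays in the fit (adjusted p = 0.0781) and leaving out slide 5 (-0.92, adjusted p = 0.191).

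The remaining ligands showed no call in any comparison, but several had values set apart. IL5, the growth factor of eosinophils, had low values on days 4 and 7 after 7.4 Gy. Its brighter probe (A_01_P1672026) read -2.45, -0.83, -1.30 and -1.99 in control. It read -2.65, -4.35, -2.34 and -5.43 on day 4 after 7.4 Gy and -4.46, -3.59, -3.28 and -3.87 on day 7, and 1 and 3 of the 4 arrays were well above background. On day 12 after 7.4 Gy it read -1.81 and -3.07, overlapping control.

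On day 7 after 7.4 Gy every IL5 array lay below every control (-2.16, SE 0.38, limma adjusted p = 0.0545), while on day 4 the groups overlapped (-2.05, adjusted p = 0.108). After 6.7 Gy it read -0.89, -3.25, -2.96 and -4.05 on day 4, -1.28, -1.70, -3.23 and -2.26 on day 7 and -3.98 and -2.96 on day 12, where both arrays lay below every control (-1.83, adjusted p = 0.532). The other IL5 probe (A_01_P008959) had the same sign as this one in all 13 comparisons of 2 groups. Its day 7 difference after 7.4 Gy was -1.96, and -0.11 with every value raised to the level of -1.85.

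The IL5 value on day 7 was near the threshold from both sides. The brighter probe was called with normexp background correction, with trend and robust, and without day 7 replicate 3. The other probe was called with other arrays in the fit and with slide as a fixed or random block (adjusted p = 0.0406, 0.0383 and 0.0231). The eosinophil markers on the array were too dim to be tested, with none of the 2 well above background on every array of any group. Markers of natural killer and innate lymphoid cells, some of which make IL5, had a summed level of 2.44 to 3.23 in control and of 1.26 to 2.44 on day 7 after 7.4 Gy, with 0 of 3 called, and their part in the IL5 values was not tested. IL4 and IL13, which lie beside each other on the chromosome and act with IL5, were dim, with IL4 well above background on 14 arrays. IL4 entered the test only through the 7.4-Gy day 7 group, where its mean was above control (-4.71, against -5.48), so its differences are a description.

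**Figure D4:**
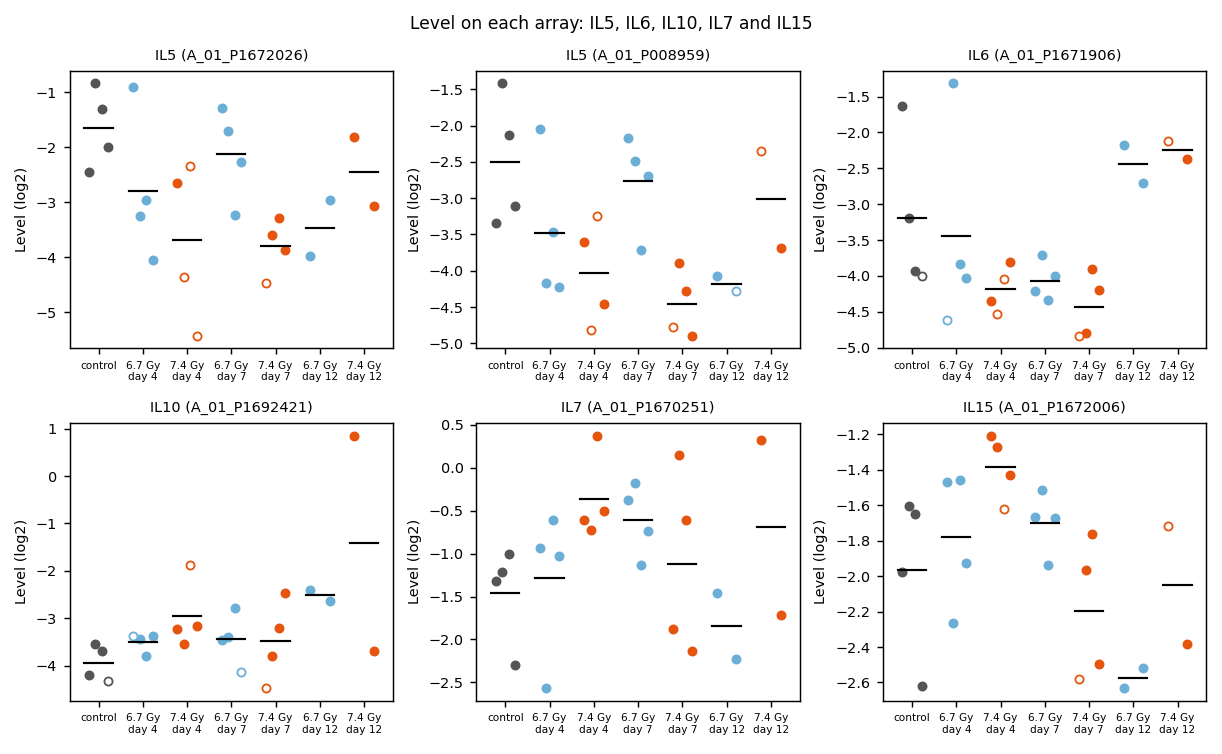
Level (log2) on each array of both IL5 probes and of IL6, IL10, IL7 and IL15, by group. Filled points are well above background, open points are not, and lines are group means; in the 7.4-Gy day 7 group the brighter IL5 probe lies between -4.46 and -3.28, below every control.

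IL6, IL10 and IL7 were chosen for description after their values were seen. IL6, a cytokine of the acute-phase response, read -1.62, -3.20, -3.93 and -4.00 in control. Its 8 arrays of day 7 lay between -4.83 and -3.71, and its 4 arrays of day 12 between -2.71 and -2.11. From day 4 to day 12 after 7.4 Gy the difference was 1.94 log2 (SE 0.66, limma adjusted p = 0.10), and 1 of the 2 day 12 arrays of that dose was not well above background.

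IL10, which restrains inflammation, read -4.20, -3.54, -3.70 and -4.33 in control and -2.40 and -2.64 on day 12 after 6.7 Gy, a difference of 1.42, and of 0.54 with normexp background correction. Its probe was well above background on every array only in the day 12 groups, where its mean is highest, and on 3 of 4 arrays in each other group, so it entered the test through those groups and its differences are given as a description. On day 12 after 7.4 Gy the 2 arrays read 0.85 and -3.70, so the mean difference of 2.52 came from 1 array. That array, replicate 1, lay on slide 5.

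IL7 and IL15 maintain lymphocytes. The brighter IL7 probe (A_01_P1670251) read -1.31, -1.22, -1.0 and -2.30 in control and -0.61, -0.73, 0.37 and -0.50 on day 4 after 7.4 Gy, with no overlap (1.09, SE 0.33, limma adjusted p = 0.0900). The dimmer IL7 probe differed by -0.02 in that group. IL15 read -1.98, -1.60, -1.65 and -2.62 in control and -1.21, -1.27, -1.62 and -1.43 on day 4 after 7.4 Gy (0.58, adjusted p = 0.172), and its day 12 values after 6.7 Gy were -2.63 and -2.52.

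IL34, a ligand of the macrophage receptor CSF1R, stayed between 1.1 and 2.42 on all 24 arrays, with differences from control of -0.26 to 0.25. IL16, IL23A and IL4 were likewise without a call, with differences from control of at most 0.85 log2.

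Among the receptors, IL2RG, the common gamma chain, had 3 tested probes with 1 direction. Probe A_01_P1740971 read -1.45, -1.65, -1.89 and -1.74 in control, -1.27, -1.12, -0.90 and -0.98 on day 4 after 6.7 Gy and -1.31, -1.37, -1.06 and -1.28 on day 4 after 7.4 Gy. Both irradiated groups lay above every control, by 0.61 (limma adjusted p = 0.0608) and 0.43 (adjusted p = 0.119). On day 7 after 6.7 Gy it read -1.35, -0.89, -1.23 and -1.17, again above every control (0.52, adjusted p = 0.271).

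The brightest IL2RG probe (A_01_P001700) overlapped control in all groups, with differences of 0.45 and 0.30 on day 4. The T cell markers on the array had a summed level of 2.39 to 2.90 in control, of 2.73 to 3.15 on day 4 after 6.7 Gy and of 2.58 to 3.38 after 7.4 Gy, so they overlapped too.

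IL6ST, the signaling chain shared by IL6, IL11 and related cytokines, had 7 probes, of which 5 were tested. All 5 lay above control on day 4 in both groups, by 0.22 to 0.68 after 6.7 Gy and by 0.33 to 0.83 after 7.4 Gy, and none was called. Probe A_01_P1695151 ran from -1.13 to -0.90 in control and from -0.71 to -0.29 on day 4 after 7.4 Gy, without overlap (0.57, limma adjusted p = 0.0594). On day 7 all 5 were below day 4 at the same dose, by -0.84 to -0.48 after 6.7 Gy and by -0.87 to -0.22 after 7.4 Gy. Probes of 1 gene share their RNA and are not replicates.

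**Figure D5:**
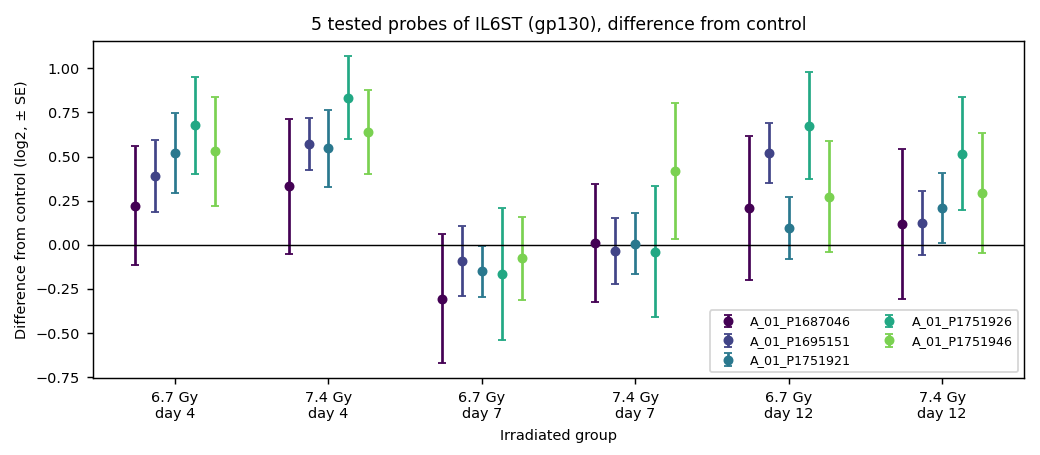
Difference from control (log2, points, with the SE from limma as bars) of the 5 tested probes of IL6ST in the 6 irradiated groups. All 5 lie above 0 on day 4 at both doses, and all 5 lie below 0 on day 7 after 6.7 Gy.

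The other receptor chains stayed without a call. IL20RB differed by 2.01 log2 on day 12 after 7.4 Gy, which rests on 1 array well above background and on 1 of slide 5 that was not. IL6R differed by 1.18 in the same group. Both probes entered the test only through groups with a mean above control (for IL20RB the 7.4-Gy day 7 group alone), so these differences are a description. IL10RB, IL11RA, IL12RB1, IL13RA2, IL15RA, IL20RA, IL22RA1 and IL27RA differed from control by -0.75 to 0.78 in every group.

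Between the doses, limma called 0 of 48 probes on each of the 3 days, as for all probes (0% called on each). The day 12 comparison is also one between slides and scan days. At an unadjusted p under 0.05 there were 1, 6 and 3 (2.08%, 12.5% and 6.25%, against 2.38%, 6.08% and 4.92% of all probes), and the methods' t-test called 0 on each day. IL5 had the largest difference on day 7, lower after 7.4 Gy by -1.70 and -1.68 for its 2 probes (adjusted p = 0.808 for both). Over the 7 groups together, the F test passed 3 of 48 probes, those of IL18, IL1R1 and IL18BP (6.25%, against 9.96% of all probes).

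Genes that carry or answer these signals are given from lists written from general knowledge. Of 21 tested genes for Janus kinases, STAT factors and SOCS proteins, 0 were called against control in any group, where 0.00355% to 2.6% of all probes were called. SOCS2, an inhibitor of cytokine signalling, differed from control by -1.53 log2 on day 12 after 7.4 Gy (limma adjusted p = 0.528). SOCS2 was called down between day 4 and day 12 after 7.4 Gy (-1.50).

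Of 17 tested genes of IL1 family signalling and the inflammasome, 0 were called against control in the same 6 comparisons, and so were 0 of 10 tested receptor chains and ligands with other symbols. At the shares of all probes given above, lists of this size hold few calls or none. GSDMD, whose protein forms the pore through which IL18 and IL1B leave the cell, was higher by 0.79 on day 4 after 7.4 Gy (limma adjusted p = 0.0383, under 2-fold). CASP1, the protease that cleaves both, differed by 0.77 on day 12 after 7.4 Gy (adjusted p = 0.520). PYCARD, the inflammasome adaptor, was called up from day 4 to day 12 after 7.4 Gy (1.74).

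Among the receptor chains and ligands with other symbols, OSMR, which pairs with IL6ST, was higher by 0.80 on day 4 after 7.4 Gy (limma adjusted p = 0.0376, under 2-fold) and by 0.80 after 6.7 Gy (adjusted p = 0.0992). CLCF1, a ligand of the same family, differed by 0.79 on day 7 after 7.4 Gy (adjusted p = 0.232).

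Of 18 tested epithelial genes that IL22 and IL17 are known to induce, 1 was called up and 2 down on day 4 after 6.7 Gy, and 0 up and 1 down after 7.4 Gy, where 1.98% and 2.6% of all probes were called. CCL20, which draws lymphocytes to the mucosa, rose by 2.73 log2 after 6.7 Gy (limma adjusted p = 0.0340). FUT2, which fucosylates the surface of the epithelium, fell by 1.79 after 6.7 Gy (adjusted p = 0.00404) and by 1.94 after 7.4 Gy (adjusted p = 0.0182), and PIGR, the carrier of secretory antibody, fell by 1.48 after 6.7 Gy (adjusted p = 0.0361). The enterocyte marker VIL1 was called down after 6.7 Gy as well (-1.58, adjusted p = 0.0358) and differed by -1.01 after 7.4 Gy (adjusted p = 0.0870), while the summed enterocyte level overlapped control in both groups. The part of these cells in the falls was not tested. The median of the 18 was 0.21 and 0.08, against -0.06 and -0.08 over all probes.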

How the data were processed

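Single-color Agilent rhesus arrays were hybridized with Cy3-labelled jejunum RNA of 24 animals without pooling. The authors deposited background-subtracted spot intensities (Agilent Feature Extraction 11.0.1.1) and a table of log2 values scaled to each array's 75th percentile in GeneSpring. Of the values used here, 99.9% lay within 0.01 log2 of that table. The authors' own comparisons were not used. Saturation affected 0 spots.

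After removal of control spots, replicate spots of 1 probe were averaged as log2 values. Levels, the filter and the calls are as given above. Comparisons with control were fitted in limma 3.58.1 (R 4.3.3) on the 2 groups, and days, doses and the F test in 1 model of all arrays. The fits were tested on simulated data. Of 71 symbols, 64 were in the reference gene table. For a symbol with several probes the brightest stood for it. Genes named with values were those called, the 3 of each class with the smallest F-test p, and a few chosen after their values were seen. Members and lists were chosen with earlier results of these data known. The 2 symbols left out are not reported here. Alternatives covered background, scaling, floor, filter, test, slide, scan day, position, replicate number and arrays left out. The normexp alternative used the median signal, since the mean signal was not analysed here. Each array is 1 animal, so p-values measure spread between animals together with that of slide, scan and hybridization. Arrays that share a slide are not wholly independent (correlation within a slide 0.156), and the number of arrays limits the precision. Replicate numbers name different animals, and the deviations of same-numbered arrays correlated above 0.1 in 9 of 40 pairs, so the numbers were not taken as pairs. Of the 40, 8 shared a slide, and 6 of those 8 were above 0.1.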

Additional observations from a re-analysis of the deposited data

Results flagged for a closer look

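Within groups of 4 arrays, 5 values stood apart from the other 3 by Dixon's test among 80 groups examined, and chance marks about 1 in 20. IL1R1 (A_01_P1682871) was at -2.14 in replicate 1 of the 6.7-Gy day 4 group, and IL9R (A_01_P1684461) was at -5.18 on the same array, which lay on slide 5. IL17RE (A_01_P1757161) was at -1.60 in replicate 3 of that group. IL17B (A_01_P012749) was at -0.34 in control replicate 3. The dimmer IL18BP probe (A_01_P1670951) was at -1.99 in replicate 2 of the 6.7-Gy day 7 group.

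Effects differed between days in the tests of the days themselves. After 7.4 Gy, IL18 (A_01_P011425) differed from day 4 by -1.22 on day 7 and by -1.44 on day 12, and IL17B by -1.02 on day 7 (limma, all called).

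Other values lay on opposite sides of the control mean on days 7 and 12, in every array, and the difference between these days was not tested. IL6 (A_01_P1671906) averaged -0.88 and 0.75 from control after 6.7 Gy and -1.25 and 0.94 after 7.4 Gy. IL17B averaged -0.55 and 0.24 after 7.4 Gy, and IL15 (A_01_P1672006) 0.27 and -0.61 after 6.7 Gy.

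Of the probes left out of testing, IL12B probe A_01_P1672181 was well above background on 3 of 4 arrays of the 6.7-Gy day 4 group and on 0 of 4 controls. The cause was not tested for any of these values.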

How the results depend on the processing

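Counts of called interleukin probes were small, so single calls move them. Of 193 counts under 17 alternatives other than leaving out 1 array, 135 were within 1.5 times the main count and 58 were not; the cause was not tested except where named. On day 4 after 6.7 Gy (main count 1) the count was 0 with quantile normalization, a common floor, no filter, probes detected on all arrays (where IL9R is not tested), the methods' t-test, position as a block or the replicate block, and 2 with all arrays in the fit, slide as a fixed or random block, scan day as a block, without slide 5 or without slides 4 and 5. On day 4 after 7.4 Gy (1) it was 0 with no filter, position as a block, the replicate block or without slides 4 and 5, 2 on probes detected on all arrays and 3 with slide as a random block. On day 7 after 7.4 Gy (1) it was 2 with normexp, trend and robust or slide as a fixed block (where IL17RE was lost and IL5 and IL18 were called), and 0 with a common floor, no filter, probes detected on all arrays, the methods' t-test, scan day as a block, the replicate block or without slides 4 and 5. For day 7 against day 4 it was 1 after 6.7 Gy (0) without slide 5 or without slides 4 and 5; after 7.4 Gy (2) it was 1 with normexp or slide as a fixed or random block and 0 with no filter, the methods' t-test, other arrays in the fit, the replicate block, without slide 5 or without slides 4 and 5. For day 12 against day 4 after 7.4 Gy (1) it was 4 with quantile normalization, 3 when scaled on the 75th percentile of the probes that every array detected, 2 with normexp, probes detected on all arrays, trend and robust or slide as a random block, and 0 with no filter, the methods' t-test, other arrays in the fit, scan day as a block, the replicate block, without slide 5 or without slides 4 and 5. For the F test (3) it was 5 with that percentile or slide as a fixed block, 7 with slide as a random block, 1 with no filter and 0 without slides 4 and 5.

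Leaving out 1 array at a time gave 1 to 2 calls on day 4 after 6.7 Gy, 1 to 1 on day 4 after 7.4 Gy, 0 to 2 on day 7 after 7.4 Gy, 0 to 2 on day 12 after 7.4 Gy, 0 to 1 for day 7 against day 4 after 6.7 Gy, 0 to 2 and 0 to 3 for days 7 and 12 against day 4 after 7.4 Gy, 0 to 1 between the doses and 1 to 6 for the F test, and 0 throughout in the other comparisons. The 2 calls on day 12, the call between the doses and the 6 of the F test came without replicate 2 of the 7.4-Gy day 12 group; the remaining array then stands alone and is assumed to vary like the others. IL10 was among the calls of each. Day 7 against day 4 after 6.7 Gy gained IL1R1 without day 4 replicate 1 and IL17B without day 7 replicate 4.

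With the replicate block, no interleukin probe was called in any comparison of 2 groups (0) and 3 passed the F test; the numbers name different animals. Leaving out slides 4 and 5 was chosen after seeing the data. The position block could not be fitted for days 7 and 12 against control, between days or for the F test. With no filter the median of all probes shifted by -0.11 to 0.17 log2. None of the 16 differences examined gene by gene reversed under any alternative. The common floor, a level of -1.85, is the detection limit of 1 array of slide 5, and the other arrays detected lower levels.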
